A study of Rattus norvegicus with 30 samples.

Results

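Acetaminophen, an analgesic that harms the liver at high doses, was given to cultured rat hepatocytes, and transcripts of the lysosome and of autophagy were followed. The set held 41 genes listed by function, 26 of the lysosome and 15 of autophagy, and 39 of them were measured among 14217 named genes. Each gene was read from its brightest probe set, the one with the highest mean log2 signal over all arrays. All 39 lay among the 8531 brighter genes that were tested. Map1lc3b and Gabarapl2, both of the Atg8 family, were not used because their probe sets on this array name several genes.

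Frozen male Sprague Dawley hepatocytes bought from a supplier were grown on collagen under a Matrigel overlay and dosed on the third day of culture. Treated wells received 500 or 5000 µM acetaminophen and control wells 1% DMSO, the solvent in which the dosing solutions were made. RNA was taken 24 or 48 h later, and each of the 6 groups of dose and time held 5 separate wells with 1 Affymetrix array each. The number of donor animals is not given in the sources used here, so p-values here reflect well-to-well and not animal-to-animal spread.

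Lysosomes are acidic organelles in which hydrolases break down proteins, lipids and glycans, and a vacuolar proton pump keeps them acidic. Autophagy brings cytoplasm, mitochondria and protein aggregates to the lysosome inside a double membrane. That membrane forms under the kinase Ulk1, is extended by proteins that attach Atg8 family members to lipid, and takes up cargo through receptors such as Sqstm1. In mouse liver, autophagy is known to clear damaged mitochondria and protein adducts after acetaminophen overdose.

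The values were linear MAS5 signals, and a change is a difference of mean log2 signals, given with its standard error. Calls rest on an adjusted p (Benjamini-Hochberg) under 0.05 in limma over all genes tested, with n = 5 arrays per group throughout. The 7 hepatocyte markers found on the array summed to signals between 302189 and 404927 on the 30 arrays. In bulk RNA, fewer cells of a type and less RNA per cell cannot be told apart. Of 20 Kupffer cell and leukocyte markers 18 were named and 3 were tested, and the list summed to 22226 to 25008 at 5000 µM against 25527 to 33024 in vehicle at 24 h. At 48 h the sums were 23025 to 25028 at 5000 µM, 25175 to 28295 at 500 µM and 26373 to 30686 in vehicle. Cd14 was the brightest of these markers, and Itgam had a mean signal of 15.5 to 19.7 in the 6 groups. RNA quality was read from the β-actin controls as the log2 of the 3' over the 5' probe set, and this 3'/5' ratio ran from 1.09 to 2.02 over the arrays. It was 1.86 ± 0.12 at 500 µM and 1.24 ± 0.11 in vehicle at 48 h (SD, n = 5 each, exact permutation p = 0.00794, which is the smallest possible with 5 against 5, adjusted p = 0.0185 over 14 comparisons of the β-actin and GAPDH ratios). The coefficient of variation within a group, taken as the median over the 6 groups, was 6.7% for the median member, 3.7% for Hexa, the lowest, and 20% for Becn1, the highest.

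At 5000 µM most of the members called were higher than in vehicle, by less than 1 on the log2 scale. At 24 h, 12 of the 39 members were higher than in vehicle and 2 were lower, while 38.1% of all genes tested were called, 18.6% higher and 19.6% lower. The members called higher made up 30.8% of those tested and those called lower 5.13%. The arrays of the 2 groups did not overlap for 10 of the rises and 1 of the falls, against 11.3% and 11.9% of all genes. With each array centred on its median the members split into 6 higher and 4 lower, and all genes into 809 higher and 1745 lower in place of 1583 and 1669. Centring ended the 24 h calls of Hexa, Lipa, Psap, Cd63, Mcoln1, Atp6ap1 and Atp6v0d1. At 48 h, 12 members were higher and 3 lower, while 32.6% of all genes were called, 14.6% higher and 18% lower. Arrays did not overlap for 8 of these rises and 2 of these falls, against 10.6% and 12.6% of all genes. Centring ended the 48 h calls of Ctsc, Ctsd, Gusb, Lamp2, Laptm4a and Sqstm1. The members then split into 8 higher and 1 lower, and all genes into 831 higher and 1036 lower in place of 1243 and 1536. The median change of the members was 0.07 at 24 h and 0.11 at 48 h, and that of all genes was -0.00 and -0.01.

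The lower dose, 500 µM, gave calls at 48 h but none at 24 h. At 24 h no member was called in limma, with 3 higher and 2 lower at an unadjusted p under 0.05, while 2.86% of all genes were called, 1.65% higher and 1.21% lower. The members' changes lay between -0.24 and 0.16 there. At 48 h, 7 members were higher and 7 lower, while 42.6% of all genes were called, 24.0% higher and 18.6% lower. Arrays did not overlap for 5 of the rises and 1 of the falls, against 15.5% and 10.9% of all genes. With centring the split at 48 h was 8 higher and 1 lower for the members, and 2324 higher and 432 lower for all genes in place of 2044 and 1588.

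**Figure D1:**
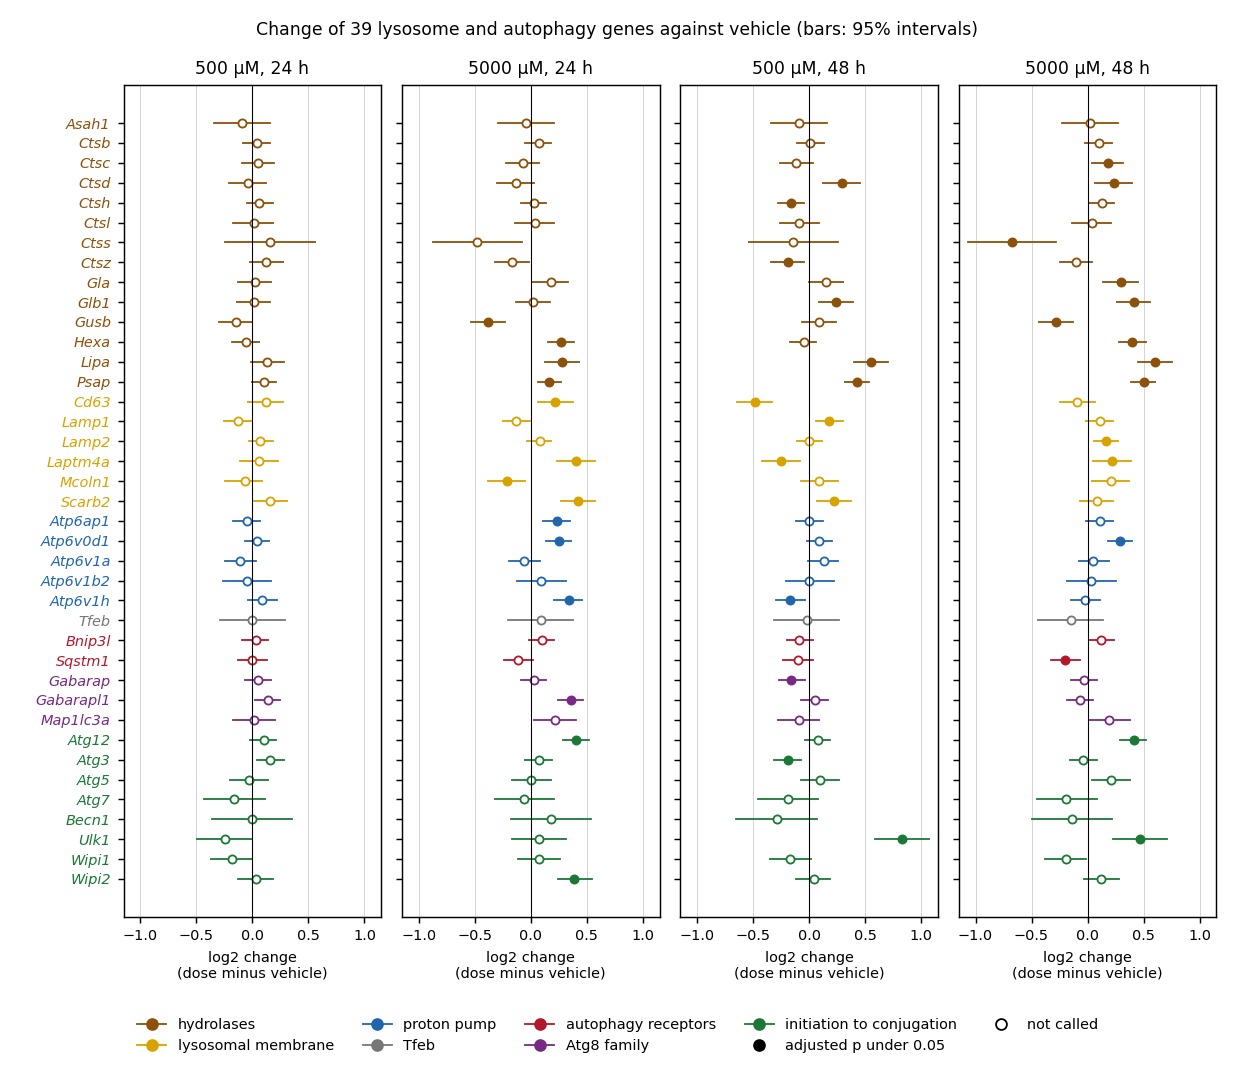
Log2 change of each of the 39 members against vehicle of the same time (x axis), with 95% intervals, in 4 panels ordered by time and dose. Filled points are called at an adjusted p under 0.05. No point is filled at 500 µM and 24 h, and at 5000 µM the filled points lie mostly to the right of 0, with Gusb to the left at both times.

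At 5000 µM and 24 h, 9 of 26 lysosomal genes (34.6%) rose and 2 (7.69%) fell, and 3 of 13 autophagy genes (23.1%) rose and none fell, while 18.6% of all genes were higher and 19.6% lower. After 48 h, 10 lysosomal genes (38.5%) rose and 2 (7.69%) fell, and 2 autophagy genes (15.4%) rose and 1 (7.69%) fell, while 14.6% of all genes were higher and 18% lower. The difference between the lysosomal and the autophagy genes was not tested. With centring, the 7 calls lost at 24 h were all lysosomal, and Ctss, Ctsz and Lamp1 were newly called lower. The lysosomal rises of Scarb2, Laptm4a and Atp6v1h held, as did the autophagy rises of Gabarapl1, Atg12 and Wipi2, while 809 of all genes were higher and 1745 lower. At 48 h the calls lost with centring were Ctsc, Ctsd, Gusb, Lamp2 and Laptm4a of the lysosome and Sqstm1 of autophagy. The median change at 48 h was 0.11 for the lysosomal and -0.03 for the autophagy genes. By role, 7 of 14 hydrolases rose and 2 fell at 48 h, with the cofactor Psap counted among the hydrolases. At that time 2 of 6 membrane proteins rose, and 1 of 5 pump subunits rose.

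Tfeb, the transcription factor that drives many lysosomal genes through a short palindrome in their promoters, was not called in any comparison. Its signal was 758, 952, 597, 656 and 564 at 5000 µM and 24 h, against 720, 751, 589, 619 and 590 in vehicle. At 48 h it was 620, 625, 471, 592 and 657 at 5000 µM, against 745, 703, 567, 580 and 688 in vehicle. The arrays overlapped at both times, and the changes were 0.09 ± 0.14 and -0.15 ± 0.14. The 95% intervals ran from -0.20 to 0.38 at 24 h and from -0.44 to 0.14 at 48 h. At 500 µM its changes were 0.00 at 24 h and -0.02 at 48 h.

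The palindrome was looked for in RefSeq promoter windows of build GRCr8, 250 bases before to 50 bases after the gene start, which were on hand for 32 of the 41 listed genes. The genes without a window are Ctsb, Hexa, Asah1, Psap, Atp6v1b2, Atp6v1h, Map1lc3a, Becn1 and Bnip3l. The core letters CACGTG, which read the same on both strands, occurred in 8 of the 32 windows (25%), against 6.42% of 33469 windows. The 33469 windows were not limited to genes measured or tested here, so they are an unlike background for the members. The longer TCACGTGA, which contains the core, occurred in 5 of 32 (15.6%), against 0.777% of all windows. With a further G before and a C after those letters, the match occurred in 0 of the 32 windows and in 0.233% of all windows. A match of letters is a description of the window and not a binding site. Stretches of the 5 promoters that hold TCACGTGA are shown in the direction of the gene, from the 5' end, with those letters in capitals, because these are the members whose own changes are then set side by side. They lie at chr11:69159281-69159340 for Atg3 (minus strand), chr19:50357268-50357327 for Atp6v0d1 (minus), chr1:206968822-206968881 for Ctsd (minus), chr16:83075069-83075155 for Lamp1 (minus) and chr12:6358209-6358268 for Mcoln1 (plus).
Atg3: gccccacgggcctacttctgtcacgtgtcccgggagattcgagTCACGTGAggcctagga
Atp6v0d1: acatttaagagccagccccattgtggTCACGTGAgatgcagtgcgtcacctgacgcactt
Ctsd: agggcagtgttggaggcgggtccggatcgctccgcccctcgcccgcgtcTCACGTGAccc
Lamp1: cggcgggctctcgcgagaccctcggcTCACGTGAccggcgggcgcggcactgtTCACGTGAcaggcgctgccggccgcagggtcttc
Mcoln1: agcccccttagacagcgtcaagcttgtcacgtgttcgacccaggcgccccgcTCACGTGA

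These 5 genes did not move as one. At 5000 µM and 24 h, Atp6v0d1, a subunit of the proton pump, rose by 0.25 and Mcoln1, a lysosomal calcium channel, fell by 0.21. Changes that were not called there were -0.13 for Ctsd, -0.13 for Lamp1 and 0.07 for Atg3. At 48 h, Atp6v0d1 rose by 0.29 and Ctsd, an aspartic protease, by 0.24, and Lamp1 (0.11), Mcoln1 (0.21) and Atg3 (-0.04) were not called. At 500 µM and 48 h, Ctsd rose by 0.29 and Lamp1, a heavily glycosylated protein of the lysosomal membrane, by 0.18, while Atg3, the enzyme that joins Atg8 proteins to lipid, fell by 0.19. The Mcoln1 call at 24 h was lost in 5 of 10 fits that left out 1 array, with centring (adjusted p = 0.0643) and in 4 other alternatives, the 3'/5' ratio as a term among them. The Ctsd call at 48 h was lost with centring (adjusted p = 0.104) and without 5000 µM replicate 5 or vehicle replicate 3.

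Among the hydrolases, with the cofactor Psap counted in, Lipa and Psap had the largest rises at 5000 µM and 48 h. Lipa is the acid lipase that splits cholesteryl esters and triglycerides taken into the lysosome. Its signal was 12697, 14673, 14197, 13063 and 12888 at 5000 µM, against 8734, 9034, 8611, 8978 and 9189 in vehicle. Every treated array lay above every vehicle array, and the change was 0.60 ± 0.07 (adjusted p = 9.26e-08). At 24 h it rose by 0.28 ± 0.07 (adjusted p = 0.00261), with signals of 15697, 15416, 12963, 12695 and 14913 at 5000 µM against 11037, 12041, 13000, 11027 and 11844 in vehicle. There the highest vehicle array lay above the lowest treated ones, and the call was lost with centring (0.21, adjusted p = 0.132).

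Psap encodes prosaposin, the precursor of 4 small proteins that present lipids to lysosomal hydrolases. At 48 h it had signals of 17013, 17588, 16682, 18294 and 16871 at 5000 µM, against 11868, 12279, 12369, 11149 and 13648 in vehicle, and it rose by 0.50 ± 0.05 (adjusted p = 3.77e-09). The groups stood well apart. At 24 h the rise was smaller, 0.16 ± 0.05 (adjusted p = 0.0131), and it was lost with centring (adjusted p = 0.475) and when 5000 µM replicate 5 was left out.

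Hydrolases that act on glycans and glycolipids did not all move one way. Hexa, the alpha chain of β-hexosaminidase, rose at both times, by 0.27 ± 0.06 at 24 h and 0.40 ± 0.06 at 48 h, with a range of 7213 to 7742 at 5000 µM against 5361 to 5700 in vehicle at 48 h. Glb1, a β-galactosidase, rose at 48 h by 0.41 ± 0.07 (adjusted p = 4.98e-05) and had a change of 0.02 at 24 h. Gla, an alpha-galactosidase, rose at 48 h by 0.30 ± 0.07 (adjusted p = 0.00236) and had a change of 0.18 at 24 h (adjusted p = 0.0615). Hexa at 24 h was not called with centring (adjusted p = 0.0965).

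Gusb, the β-glucuronidase of the lysosome, went the other way at both times. At 24 h its signal was 2298, 2659, 2129, 1950 and 2086 at 5000 µM, against 2713, 3020, 2933, 2734 and 3040 in vehicle. At 48 h it was 2625, 2646, 2267, 2753 and 2737 at 5000 µM, against 3138, 3210, 3278, 3016 and 3134 in vehicle. All treated arrays lay below all vehicle arrays at each time. The falls were -0.38 ± 0.07 (adjusted p = 1.11e-04) and -0.28 ± 0.07 (adjusted p = 0.00388), and the second was not called with centring (adjusted p = 0.0553).

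The cathepsins are lysosomal proteases, and most of the 7 in the set changed little at 5000 µM. At 48 h Ctsd rose by 0.24 ± 0.08 and Ctsc, which activates granule proteases in leukocytes, by 0.18 ± 0.07 (adjusted p = 0.0456), a call lost in 7 of 10 fits without 1 array and with centring (adjusted p = 0.231). Ctss, a protease of antigen-presenting cells, fell at 48 h by -0.67 ± 0.20 (adjusted p = 0.0075), with ranges of 292 to 565 at 5000 µM and 456 to 826 in vehicle that overlapped. At 24 h its change was -0.48 ± 0.20 (adjusted p = 0.0532). Of the 3 Kupffer cell and leukocyte markers tested, Cd14 was lower at 5000 µM, by -0.54 ± 0.07 at 24 h and -0.28 ± 0.07 at 48 h. Lyz2 (-0.07 and -0.15) and Cd68 (0.18 and -0.10) were not called. Cd14 had a mean signal of 12621 at 5000 µM against 18457 in vehicle at 24 h, within summed marker means of 23935 and 30042. The part of these cells in the Ctss result was not tested. Ctsb, Ctsh, Ctsl and Ctsz were not called at either time.

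Of the lysosomal membrane proteins, Scarb2 and Laptm4a had the largest rises at 5000 µM and 24 h. Scarb2, also called LIMP-2, carries glucocerebrosidase to the lysosome. Its signal was 10364, 10616, 10551, 8508 and 9948 at 5000 µM, against 7501, 7908, 7532, 7326 and 7116 in vehicle. The 2 groups did not overlap, and the change was 0.42 ± 0.07 (adjusted p = 3.34e-05). Laptm4a, a small membrane protein of late endosomes and lysosomes, had 26735, 28050, 31757, 28772 and 32151 at 5000 µM, against 20018, 21632, 25768, 23053 and 21651 in vehicle. Again no array crossed over, and it rose by 0.40 ± 0.08 (adjusted p = 2.92e-04).

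By 48 h Scarb2 was at 0.08 and was not called, and Laptm4a was higher by 0.22 ± 0.08 (adjusted p = 0.0457), a call lost in 8 of 10 fits without 1 array and with centring (adjusted p = 0.13). Cd63, a tetraspanin of late endosomes, rose at 24 h by 0.22 ± 0.08 (adjusted p = 0.0223) and was at -0.09 at 48 h. With the 3'/5' ratio in the model the Cd63 change at 24 h was 0.10 (adjusted p = 0.412), and the call was also lost with centring (adjusted p = 0.304) and in 3 of 10 fits without 1 array. Lamp2, which takes part in fusion of autophagosomes with lysosomes, rose at 48 h by 0.16 ± 0.05 (adjusted p = 0.015), a call lost with centring (adjusted p = 0.206).

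Of the 5 proton pump genes 3 rose at 5000 µM and 24 h. Atp6v1h, a subunit of the cytosolic sector, rose by 0.34 ± 0.06, Atp6v0d1, of the sector in the membrane, by 0.25 ± 0.05, and Atp6ap1, an accessory protein, by 0.23 ± 0.06. The ranges at 24 h were 8264 to 9421 at 5000 µM against 6722 to 7422 in vehicle for Atp6v1h, 11360 to 12619 against 9301 to 10848 for Atp6v0d1, and 10868 to 11764 against 9103 to 10388 for Atp6ap1. None of these overlapped. At 48 h Atp6v0d1 alone of the 5 was called, at 0.29 ± 0.05 (adjusted p = 8.13e-05), and Atp6v1h was at -0.02. With centring the 24 h calls of Atp6v0d1 and Atp6ap1 were lost (adjusted p = 0.184 and 0.238).

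**Figure D2:**
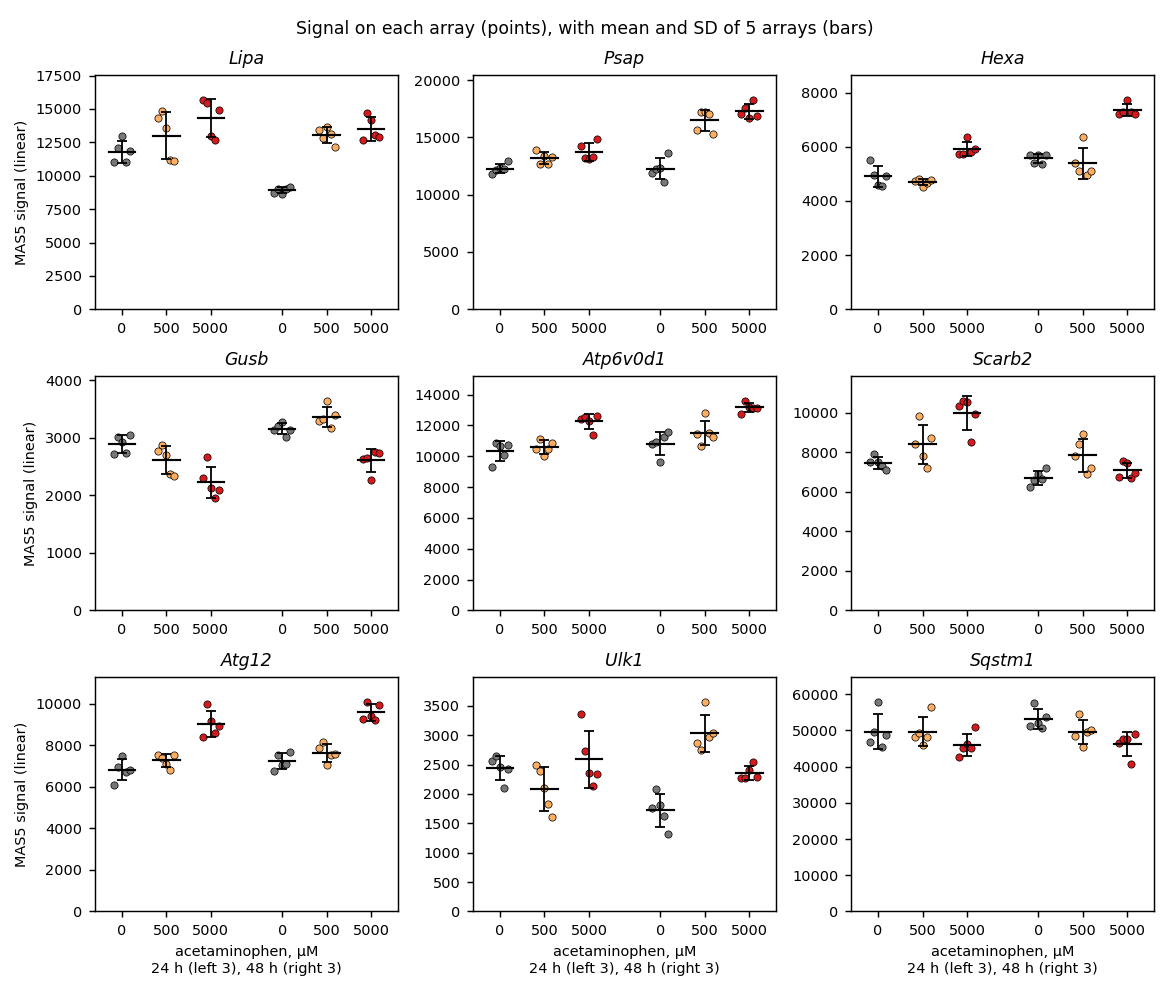
MAS5 signal (y axis, linear, from 0) on each of the 5 arrays of a group for 9 members, by acetaminophen concentration (x axis, 0 is vehicle), at 24 h on the left and 48 h on the right of each panel. Lines and bars are the mean and SD. Lipa and Psap at 48 h stand above vehicle at both doses, Hexa, Atp6v0d1 and Atg12 at 5000 µM, and Gusb at 5000 µM lies below.

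Among the autophagy genes, Atg12 was the one that rose at 5000 µM at both times. Atg12 is a ubiquitin-like protein that is joined to Atg5 and helps attach Atg8 proteins to the growing membrane. At 24 h it had signals of 8418, 10015, 9191, 8580 and 8916 at 5000 µM, against 6115, 6975, 7512, 6703 and 6830 in vehicle. At 48 h it had 9249, 10096, 9431, 9210 and 9955 at 5000 µM, against 6754, 7557, 7078, 7124 and 7704 in vehicle. The arrays were apart at both times. On this brightest probe set the rises were of nearly one size, 0.40 ± 0.06 (adjusted p = 9.8e-07) and 0.41 ± 0.06 (adjusted p = 1.08e-06).

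Wipi2 binds phosphoinositide on the forming membrane and recruits the conjugation machinery. At 24 h its signal was 5006, 5600, 5440, 4958 and 4723 at 5000 µM, against 4071, 4088, 4077, 3781 and 3563 in vehicle. All treated arrays lay above all vehicle arrays, with a rise of 0.39 ± 0.08 (adjusted p = 1.21e-04). At 48 h its change was 0.12 and was not called. Gabarapl1, an Atg8 family protein, rose at 24 h by 0.36 ± 0.06 (adjusted p = 7.25e-06), with a range of 16003 to 18197 at 5000 µM against 12879 to 14611 in vehicle, and was at -0.07 at 48 h.

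Ulk1, the kinase that starts autophagy, was higher at 48 h at both doses. Its signal was 2864, 2742, 3568, 2966 and 3036 at 500 µM, and 2269, 2273, 2404, 2551 and 2289 at 5000 µM, against 1756, 2091, 1807, 1631 and 1312 in vehicle. Both doses lay wholly above vehicle. The changes were 0.83 ± 0.12 at 500 µM (adjusted p = 4.28e-06) and 0.47 ± 0.12 at 5000 µM (adjusted p = 0.00239). When the 3'/5' ratio entered the model the change at 500 µM was 0.35 and not called (adjusted p = 0.0825), and that at 5000 µM was 0.49 and called (adjusted p = 1.52e-05). At 24 h the Ulk1 change at 5000 µM was 0.07 (adjusted p = 0.677) and, with that covariate, 0.39 (adjusted p = 0.00279).

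Sqstm1, also called p62, is the receptor that brings ubiquitinated cargo to Atg8 proteins and is itself degraded by autophagy. At 48 h its signal was 46442, 47759, 47607, 40663 and 49067 at 5000 µM, against 51331, 57648, 52029, 50757 and 53700 in vehicle. The treated arrays all lay below the vehicle arrays, by -0.20 ± 0.06 (adjusted p = 0.017). The call was lost without vehicle replicate 2, without 5000 µM replicate 4, with centring (adjusted p = 0.122) and when its probe sets were averaged (adjusted p = 0.165). At 24 h the signal was 42759, 45092, 46331, 45074 and 50862 at 5000 µM, against 46722, 49510, 57879, 45469 and 48800 in vehicle, which overlapped (-0.11, not called). Bnip3l, a receptor for mitochondria, was not called against vehicle at either dose or time on its brightest probe set. Its other probe set was called at 48 h at both doses. When its probe sets were averaged, Bnip3l was called at 5000 µM and 48 h.

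Lipa and Psap were the members called at 500 µM and 48 h whether or not the 3'/5' ratio was a covariate. Lipa had signals of 13442, 12807, 13671, 13116 and 12159 at 500 µM, against 8734, 9034, 8611, 8978 and 9189 in vehicle. Psap had 15665, 17238, 17179, 17060 and 15271 at 500 µM, against 11868, 12279, 12369, 11149 and 13648 in vehicle. For both genes the groups were apart. Lipa rose by 0.55 ± 0.07 (adjusted p = 1.57e-06), or by 0.32 when the ratio was a covariate (adjusted p = 0.0286). Psap rose by 0.43 ± 0.05 (adjusted p = 4.87e-07), or by 0.40 with the covariate (adjusted p = 0.00116).

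None of the remaining 12 members called there passed with the covariate, under which 3.97% of all genes were called. All 5 arrays at 500 µM had a ratio above the widest gap in that measure and all 5 vehicle arrays one below it, so dose and ratio cannot be told apart in this comparison. Ctsd had signals of 13691, 14098, 14642, 13097 and 12158 at 500 µM, against 11340, 11773, 9731, 11042 and 11653 in vehicle, a rise of 0.29 ± 0.08. Cd63 had 10270, 9407, 8956, 8248 and 9250 at 500 µM, against 12565, 12058, 12957, 13017 and 13864 in vehicle, a fall of -0.48 ± 0.08. In each case no array of one group reached the other. With the covariate Ctsd was at 0.11 (adjusted p = 0.625) and Cd63 at -0.30 (adjusted p = 0.0881). Without 500 µM replicate 3, 9 members were called in place of 14, and 3069 genes in place of 3632.

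**Figure D3:**
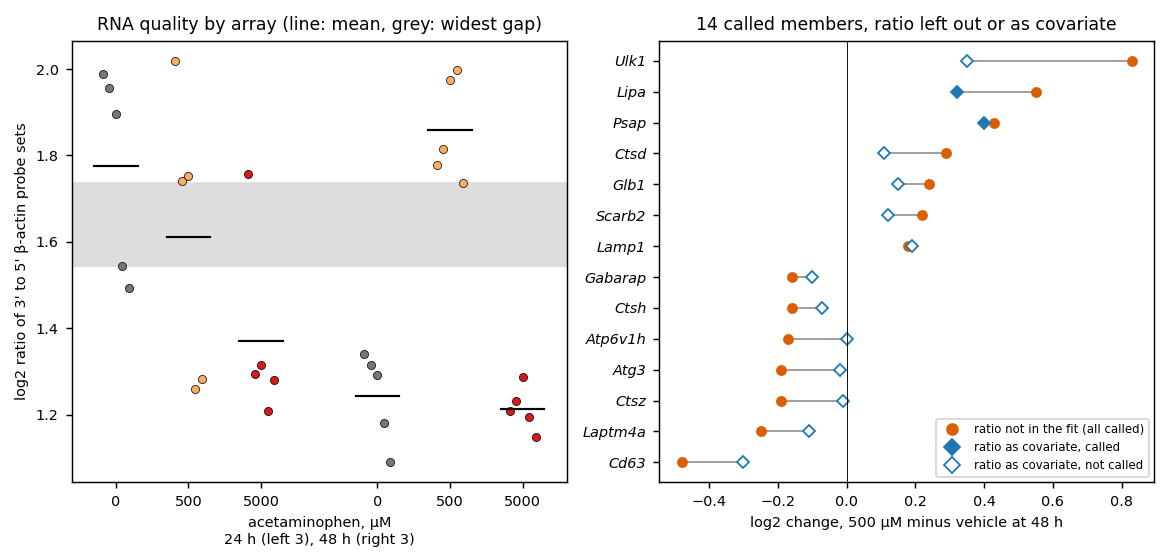
Left, log2 ratio of 3' to 5' β-actin probe sets (y axis) on each array by acetaminophen concentration and time, with group means as lines and the widest gap in grey. Right, log2 change at 500 µM and 48 h (x axis) of the 14 called members, without the ratio in the fit (circles) and with it as a covariate (diamonds, filled where called). Lipa and Psap stay filled, and Ulk1 moves from 0.83 to 0.35.

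At 5000 µM, with the covariate, 12 of the 14 members called at 24 h and 15 of the 15 called at 48 h were still called in the same direction. The same held for 2241 of the 3252 genes called at 24 h and 2777 of the 2779 called at 48 h. At 48 h the ratio was 1.21 ± 0.05 at 5000 µM and 1.24 ± 0.11 in vehicle. At 24 h it was 1.37 ± 0.22 at 5000 µM and 1.78 ± 0.24 in vehicle (SD, n = 5 each, exact permutation p = 0.0476, adjusted p = 0.0833). Among the arrays below the gap at 24 h, 4 at 5000 µM and 2 in vehicle, all 14 called members kept the sign of their change. These arrays are part of those that gave the calls, and a member whose groups do not overlap cannot turn in them. The count is therefore a description and no test of the part of the ratio.

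Between the doses, 5000 µM was higher than 500 µM for 11 members and lower for 3 at 24 h, while 31.2% of all genes were called, 16.8% higher and 14.3% lower. At 48 h it was higher for 12 and lower for 3, while 47.6% of all genes were called, 19.4% higher and 28.2% lower. With centring these splits were 2 higher and 3 lower at 24 h, and 4 higher and 3 lower at 48 h, against 592 higher and 1224 lower and 760 higher and 2708 lower of all genes. Hexa was higher at 5000 µM at both times, by 0.33 ± 0.06 and 0.45 ± 0.06, and Atg12 by 0.31 ± 0.06 and 0.33 ± 0.06. Gusb was lower at both, by -0.23 ± 0.07 and -0.37 ± 0.07. Ulk1 was lower at 5000 µM than at 500 µM at 48 h by -0.36 ± 0.12, which became 0.14 once the 3'/5' ratio was in the model. With that covariate 5 members (12.8%) were called at 48 h, all higher, while 20.9% of all genes were called, 757 higher and 1025 lower. Among the 5 were Hexa (0.49, adjusted p = 5.14e-05), Bnip3l (0.31, adjusted p = 0.00324) and Lipa (0.29, adjusted p = 0.0154).

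The change with 5000 µM differed between 48 and 24 h for 10 members, 6 toward higher and 4 toward lower values, while 16.4% of all genes were called, 7.74% and 8.66% by direction. Among the 6 were hydrolases and the cofactor Psap, with differences (48 h minus 24 h) for Glb1 of 0.38 ± 0.10, Ctsd of 0.37 ± 0.11, Psap of 0.34 ± 0.07 and Lipa of 0.32 ± 0.10. The membrane proteins Mcoln1 (0.42 ± 0.12) and Lamp1 (0.24 ± 0.08) were the others. The 4 in the other direction had all been called higher at 24 h, namely Gabarapl1 (-0.42 ± 0.08), Atp6v1h (-0.35 ± 0.09), Scarb2 (-0.33 ± 0.10) and Cd63 (-0.31 ± 0.11). With the covariate 5 members were called, 3 higher and 2 lower, against 388 and 433 of all genes. With centring 1 member was called (of all genes 441 higher and 174 lower). Without 5000 µM 24 h replicate 3 the count was 6 members and 1105 genes.

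**Figure D4:**
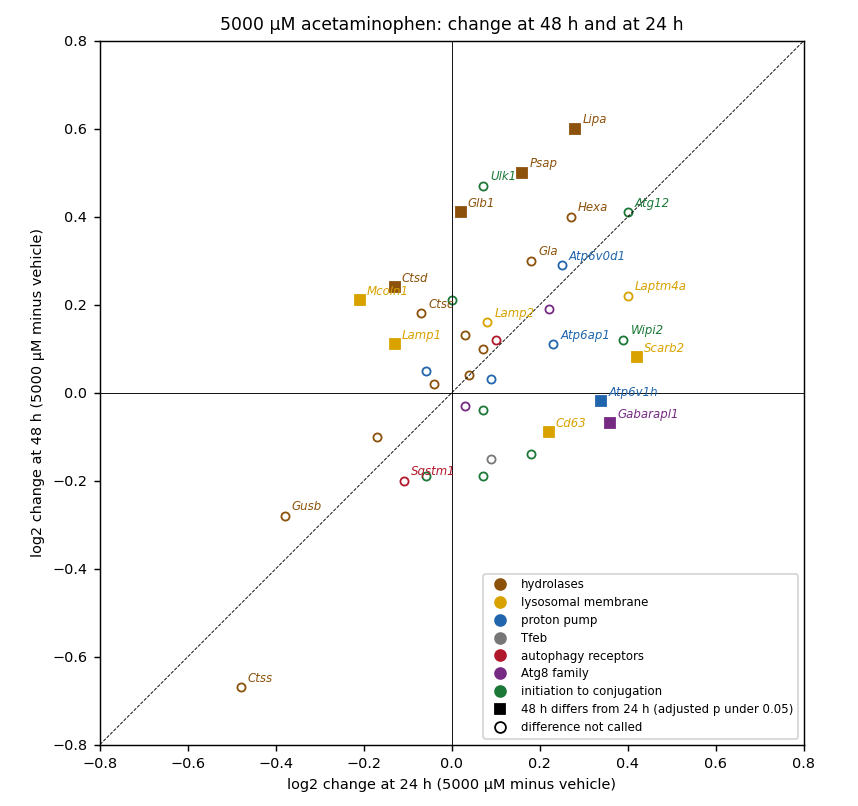
Log2 change at 5000 µM against vehicle at 48 h (y axis) and at 24 h (x axis), 1 point per member, coloured by role, with the line of equal change dashed. Squares mark the 10 members whose change differed between the times. Psap, Lipa, Glb1 and Ctsd lie above the line, and Gabarapl1, Atp6v1h, Scarb2 and Cd63 below it.

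For 500 µM the change differed between the times for 13 members, 6 toward higher and 7 toward lower values, while 36.6% of all genes were called, 22.1% and 14.5% by direction. Ulk1 had the largest of these differences, 1.07 ± 0.17. With that ratio in the model no member was called, with 3 higher and 2 lower at an unadjusted p under 0.05 and 0.0352% of all genes called in limma. Without 500 µM 24 h replicate 5 the count was 8 members and 2642 genes. With centring 6 members were called, 5 higher and 1 lower, against 1831 and 273 of all genes.

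In vehicle wells 8 members were higher at 48 than at 24 h and 2 were lower, while 32.5% of all genes were called, 13.4% higher and 19% lower. Cd63 was higher at 48 h by 0.53 ± 0.08, with 12565, 12058, 12957, 13017 and 13864 at 48 h against 8790, 7803, 9652, 9588 and 9017 at 24 h. Lipa was lower at 48 h by -0.40 ± 0.07 and Ulk1 by -0.52 ± 0.12, and for all 3 genes the vehicle groups did not overlap. The 3'/5' ratio was 1.24 ± 0.11 at 48 h and 1.78 ± 0.24 at 24 h (SD, n = 5 each, exact permutation p = 0.00794, adjusted p = 0.0185). With it as a covariate Cd63 was the 1 member called, while 5.16% of all genes were. With centring 2 members were higher and 4 lower, against 284 and 1746 of all genes. Among the arrays below the gap, 5 at 48 h and 2 at 24 h, all 10 called members kept their sign. As these arrays also gave the calls, that count is again a description and no test.

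Probe sets of the same gene did not always give the same picture. Of the members, 17 had several probe sets, with 17 others bright enough to test beside the brightest. For Atg12 at 5000 µM and 24 h the others rose too, by 0.94 ± 0.16 and 0.84 ± 0.14, more than the 0.40 of the brightest. At 5000 µM and 48 h only 1 of these others was called, also higher. Where the brightest was at 0.08, at 500 µM and 48 h, the others fell by -0.99 ± 0.16 and -0.43 ± 0.14. The second of these falls was -0.22 and not called without 500 µM replicate 3 (adjusted p = 0.0907). The other Gla probe set rose by 0.62 ± 0.10 at 24 h and 0.50 ± 0.10 at 48 h with 5000 µM. A second Ulk1 probe set rose by 0.31, 0.36 and 0.44 in the comparisons at 5000 µM and 24 h, 500 µM and 48 h, and 5000 µM and 48 h, the first of which was lost in 4 of 10 fits without 1 array. A second Sqstm1 probe set fell at 48 h by -0.61 ± 0.11 at 5000 µM and by -0.50 ± 0.11 at 500 µM.

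Of the members not called against vehicle on their brightest probe set, 2 had a further one that rose at 5000 µM and 24 h and fell at 500 µM and 48 h. For Asah1, acid ceramidase, its changes were 0.51 ± 0.14 and -0.68 ± 0.14, and for Atp6v1b2, a catalytic-sector subunit of the pump, 0.78 ± 0.13 and -0.59 ± 0.13. Other members not called on their brightest probe set also had a further one that was called. These were Atg5 and Atp6v1a at 5000 µM and 24 h, and Bnip3l at 48 h at both doses. Lamp1 was called in opposite directions at 500 µM and 48 h, 0.18 on the brightest and -0.81 ± 0.28 on another. That other probe set read 1025, 819, 224, 796 and 883 at 500 µM, against 1107, 1007, 1374, 1196 and 1211 in vehicle. Without 500 µM replicate 3, the array at 224, its change was -0.42 and not called (adjusted p = 0.117). Over all 17, the other probe sets called were 9 higher and 1 lower at 5000 µM and 24 h, 2 higher and 8 lower at 500 µM and 48 h, and 5 higher and 1 lower at 5000 µM and 48 h. Of the 8 falls 3 were lost without 500 µM replicate 3. The β-actin 3'/5' ratio differed from vehicle by -0.41 in the first of these comparisons, 0.62 in the second and -0.03 in the last, and its part in the probe set values was not tested.

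**Figure D5:**
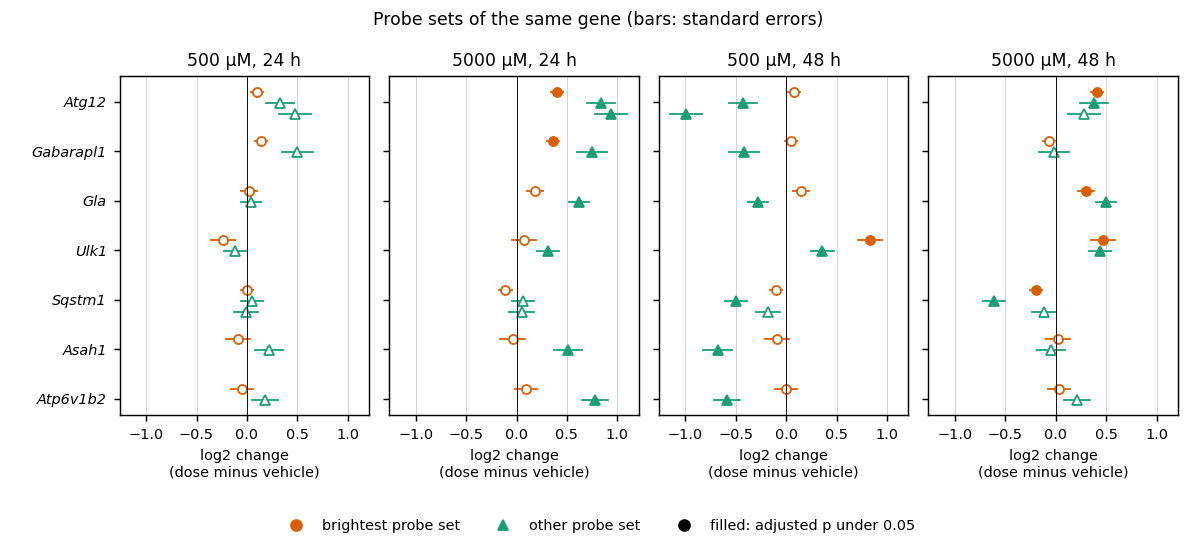
Log2 change against vehicle (x axis) with standard errors for the brightest probe set (circles) and the other tested probe sets (triangles) of 7 members, in 4 panels ordered by time and dose. Filled marks are called. At 500 µM and 48 h the triangles lie left of the circles for all 7 genes, and at 5000 µM and 24 h right of them. These 7 were picked from the 17 members with several probe sets. Bnip3l, Lamp1, Ctsc, Atg5 and Atp6v1a, whose other probe sets were also called in at least 1 comparison, are not drawn. The pattern is that of the 7 genes drawn. Over all 17 other probe sets tested, 2 were called higher at 500 µM and 48 h and 1 was called lower at 5000 µM and 24 h.

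Over the 4 comparisons with vehicle, 27 members were called at least once and 12 in none. The 12 were Asah1, Atg5, Atg7, Atp6v1a, Atp6v1b2, Becn1, Bnip3l, Ctsb, Ctsl, Map1lc3a, Tfeb and Wipi1, on their brightest probe sets. Laptm4a, Lipa and Psap were called in 3 comparisons each. Of the calls at 5000 µM, those of Atg12, Atp6v0d1, Hexa, Laptm4a, Lipa and Psap were higher at both times and that of Gusb was lower at both. The 24 h calls of Atp6v0d1, Hexa, Lipa and Psap and the 48 h calls of Gusb and Laptm4a were lost with centring, as given above.

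Genes of the same pathways outside the set were read from lists drawn up with the members, and their shares are to be read beside the 18.6% higher and 19.6% lower of all genes at 5000 µM and 24 h and the 14.6% and 18% at 48 h. Of 12 further pump subunits, 6 (50%) rose at 5000 µM and 24 h, 0 fell, and the median change was 0.23. Among them were Atp6v0b (0.52 ± 0.09) and Atp6v1e1 (0.48 ± 0.05). At 500 µM and 48 h, 2 of these 12 rose (16.7%) and 7 fell (58.3%), against 24.0% and 18.6% of all genes. Once the 3'/5' ratio entered that fit none was called, with 1 higher and 4 lower at an unadjusted p under 0.05. Of 28 further hydrolases, 8 (28.6%) rose and 6 (21.4%) fell at 5000 µM and 24 h, with Lgmn, a cysteine protease, up by 0.66 ± 0.06 and Acp2, an acid phosphatase, down by -0.72 ± 0.06. At 48 h 9 (32.1%) rose and 2 (7.14%) fell, with Smpd1, acid sphingomyelinase, up by 0.74 ± 0.08.

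Of 35 further autophagy factors, 5 (14.3%) rose and 2 (5.71%) fell at 5000 µM and 24 h, and 7 (20%) rose and none fell at 48 h. Atg4a, a protease that processes Atg8 proteins, rose by 0.44 ± 0.09 and 0.43 ± 0.09, and Atg2a, a lipid transfer protein, by 0.40 ± 0.13 and 0.58 ± 0.13. Atg13, a partner of Ulk1, fell at 24 h by -0.55 ± 0.14. With the 3'/5' ratio in the fit, 5 of the 35 were higher and 1 lower at 5000 µM and 24 h, but only 3 of the calls made without it held. At 48 h 10 were then higher and 0 lower, and 7 calls held. Of all genes, 30.5% and 35.5% were called at the 2 times with the ratio in the fit. With 500 µM 13 (37.1%) rose and 7 (20%) fell at 48 h, Atg13 among those that rose (0.83 ± 0.14). With the covariate none of the 35 was called there, with 4 higher and 3 lower at an unadjusted p under 0.05. Of 17 genes of the Tfeb family and of lysosomal mTORC1 control, 4 (23.5%) rose and 1 (5.88%) fell at 5000 µM and 24 h, and 2 (11.8%) rose and 4 (23.5%) fell at 48 h. Rraga, a GTPase that recruits mTORC1 to the lysosome, rose at both times (0.36 and 0.25), and Rragc, its partner, fell at both (-0.28 and -0.37). Rragc was also the 1 gene of these lists called at 500 µM and 24 h, at -0.18, a call lost with the covariate. Of 16 further membrane and sorting proteins, 4 (25%) rose and 2 (12.5%) fell at 5000 µM and 24 h, and 3 (18.8%) rose and none fell at 48 h.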

How the data were processed

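RNA from 30 wells was hybridised to 1-colour arrays. Per the submitters' processing notes, the deposited intensity values were made with MAS5, of unstated version and target. Trimming 2% at each end gave array means from 1500.55 to 1500.66, so the authors' values were log2-transformed with no further scaling. The table held 31099 probe sets, of which 57 controls were left out; 20826 had 1 gene symbol, 436 several and 9831 none in the platform annotation, updated through Entrez identifiers. The brightest 60% of genes were tested with limma 3.58.1 in R 4.3.3, with a mean per group over all arrays, an intensity trend and Benjamini-Hochberg adjustment. Probe sets of the same gene were adjusted over 13514 probe sets tested together. Array signals are given for called members whose groups do not overlap, at most the 4 largest rises and falls a comparison, and for Tfeb and Sqstm1. The scripts were tested on simulated data. The members and lists were chosen with earlier results of these data known. Precision is limited by the number of arrays. Alternatives changed the filter, scaling, probe set rule, variance model and groups fitted, added the 3'/5' ratio, or left out each array; values among arrays below the gap in that ratio, a block by title number and left-out arrays for the other probe sets were added after seeing the data. Protein sequences were not used here.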

Additional observations from a re-analysis of the deposited data

Results flagged for a closer look

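In 9 of 234 groups of 5 arrays (3.8%), 1 array stood apart from the other 4 by Dixon's test, and chance alone gives about 1 in 20. At 5000 µM and 48 h these were Ctsd replicate 5 at 14211 (others 12658 to 13018), Gusb replicate 3 at 2267 (2625 to 2753), Hexa replicate 3 at 7742 (7213 to 7288) and Atp6ap1 replicate 1 at 9940 (11163 to 11699). At 5000 µM and 24 h it was Atp6v0d1 replicate 4 at 11360 (12319 to 12619). At 500 µM and 24 h they were Asah1 replicate 1 at 6999 (5121 to 5509) and Gabarap replicate 5 at 40954 (36393 to 37077). In vehicle at 24 h they were Atp6v1b2 replicate 2 at 3448 (4638 to 5045) and Map1lc3a replicate 2 at 4175 (4449 to 4534).

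The change against vehicle differed between 48 and 24 h, by a test of the difference itself in limma, for 13 members at 500 µM. The differences, 48 h minus 24 h, were 1.07 for Ulk1, 0.41 for Lipa, 0.33 for Ctsd, 0.33 for Psap, 0.31 for Lamp1 and 0.23 for Atp6v1a. They were -0.21 for Gabarap, -0.23 for Ctsh, -0.26 for Atp6v1h, -0.32 for Ctsz, -0.32 for Laptm4a, -0.35 for Atg3 and -0.60 for Cd63. At 5000 µM they were 0.42 for Mcoln1, 0.38 for Glb1, 0.37 for Ctsd, 0.34 for Psap, 0.32 for Lipa and 0.24 for Lamp1. They were -0.31 for Cd63, -0.33 for Scarb2, -0.35 for Atp6v1h and -0.42 for Gabarapl1.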

How the results depend on the processing

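The titles number the arrays in 5 sets of 6, with 1 array of each group in a set, and no label says that a set shares a batch. Arrays of a set correlated by 0.06 in their deviations from group means (median of 75 pairs, -0.32 to 0.43), and 15 of 30 arrays correlated best with one of their own set. With the set as a replicate block, chosen after seeing the data, members called were 0 and 15 at 500 and 5000 µM and 24 h, and 14 and 16 at 48 h. Counts of all genes with that block are not given here, so these member counts are not set against them. Of 8007 values of single members over all alternatives, 7535 kept their call and its direction or stayed uncalled, 337 lost their call, 122 gained one and 13 turned. Turns were counted only where the value was called as reported or in the alternative. Direction was not compared for values called in neither. Calls against vehicle held in every alternative run for 7 of 14 members at 5000 µM and 24 h, 2 of 14 at 500 µM and 48 h, and 9 of 15 at 5000 µM and 48 h. Ctss, which is dim, had no value with the brightest 40% of genes.

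Member counts under centring were 9 at 500 µM and 48 h, 9 at 5000 µM and 48 h, 5 and 7 for 5000 against 500 µM at 24 and 48 h, 6 for vehicle over time, and 6 and 1 for the differences between times at 500 and 5000 µM. Gene counts under centring were 51 at 500 µM and 24 h (244 as reported) and 615 for the 5000 µM difference. Once the 3'/5' ratio entered the model, the genes and members called were 339 and 2 at 500 µM and 48 h, 1782 and 5 for 5000 against 500 µM at 48 h, 440 and 1 for vehicle over time, 3 and 0 for the 500 µM difference, and 821 and 5 for the 5000 µM difference. With the gap in that ratio as a block there were 447 genes at 500 µM and 24 h, and 1190 genes and 4 members for vehicle over time; the block could not be fitted at 500 µM and 48 h, for 5000 against 500 µM at 48 h or for the 500 µM difference. With the mean of all probe sets 1 member, Gabarapl1, was called at 500 µM and 24 h, and with only the groups compared 100 genes were. The cause of these shifts was not tested.

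The values that turned are listed here, again only those called as reported or in the alternative. With the mean of all probe sets they were, at 500 µM and 48 h, Lamp1 -0.41, Atp6v1b2 -0.29 and Atg12 -0.45. In the 500 µM difference they were Asah1 -0.45, Lamp1 -0.78, Atp6v1a -0.03 and Atp6v1b2 -0.36. In the 5000 µM difference it was Lamp1 -0.23, and for 5000 against 500 µM at 24 h Lamp2 -0.18. With the covariate, for 5000 against 500 µM at 48 h, Atp6v1h (-0.03), Atg3 (-0.03) and Ulk1 (0.14) turned, and with quantile normalization Ctsb in the 500 µM difference (0.11).

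With 1 array left out, members called ranged from 0 to 0 at 500 µM and 24 h, 13 to 16 at 5000 µM and 24 h, 9 to 15 at 500 µM and 48 h, 12 to 15 at 5000 µM and 48 h, 12 to 14 and 12 to 15 for 5000 against 500 µM at 24 and 48 h, 7 to 12 for vehicle over time, and 8 to 13 and 6 to 11 for the differences at 500 and 5000 µM. Genes called ranged from 2904 to 3379 at 5000 µM and 24 h, 3069 to 3509 at 500 µM and 48 h and 2500 to 2608 at 5000 µM and 48 h. For 5000 against 500 µM they ranged from 2392 to 2626 at 24 h and 3613 to 3999 at 48 h. For vehicle over time the range was 2285 to 2658, and for the differences at 500 and 5000 µM 2642 to 3226 and 1105 to 1725. At 500 µM and 24 h it was 116 without 500 µM replicate 5 to 290, with 155 and 156 without vehicle replicates 1 and 2 and 151 without 500 µM replicate 4.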
